A study of Mus musculus with 10 samples.

Results

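The genes described here encode the contractile proteins of muscle and their relatives in other cells. They are the myosin heavy chains (Myh), the myosin light chains (Myl), the myosin light chain kinases (Mylk), the troponins (Tnnc, Tnni and Tnnt) and the sarcomeric actins Acta1 and Actc1. They were chosen by gene name, with no limit on expression, and numbered 39 genes in each of 2 deposited tables, 29 of them sarcomeric, 3 of smooth muscle and 7 nonmuscle. In the 2.5-month table, which had 29610 rows in all, they took 41 rows. Of these, 38 were kept and 3 were second rows of Myh1, Myh6 and Myh7b, and Myl6 and Myl6b stood only in a row joined with Esyt1. The 3-month table had 54532 rows and gave each gene a row of its own.

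RNA was sequenced from somatosensory cortex of adult mice with a conditional deletion of Nsd1, the gene of an enzyme that methylates lysine 36 of histone H3. The Nex model comprised 3 libraries of the genotype Nsd1Nex-cKO (Nex_cKO) and 3 control libraries (Nex_Ctrl) at 2.5 months, of which Nex_Ctrl replicates 1 and 2 were labelled Nsd1fl/+ and replicate 3 Nsd1fl/fl. The Camk2a model comprised 2 libraries of the genotype Nsd1Camk2a-cKO (Camk2a_cKO) and 2 control libraries labelled Nsd1fl/+ (Camk2a_Ctrl) at 3 months. The labels do not say whether controls carried Cre or whether each library came from a separate mouse, so p-values measure the spread between these libraries, which may be technical. Nex is another name of Neurod6, and Cre driven from it is active in excitatory cortical neurons soon after they leave the cell cycle, whereas Camk2a drivers act in excitatory neurons at a later age. Other cells of the cortex lie outside both drivers, and in bulk tissue fewer cells of a type and less RNA per cell cannot be told apart.

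In striated muscle, a myosin filament is built from heavy chains that carry the motor, each bound by an essential and a regulatory light chain. Troponin C binds calcium, troponin I inhibits the actin filament and troponin T anchors the complex to tropomyosin. In smooth muscle and nonmuscle cells contraction is started instead when a light chain kinase phosphorylates the regulatory light chain, and the nonmuscle forms are the usual myosin II of neurons and glia.

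Levels are FPKM, fragments per kilobase of transcript scaled to the mapped fragments of the library, as the authors deposited them. Each table was tested with limma on log2(FPKM + 1), on rows that reached FPKM 1 in 3 or more libraries (Nex) or 2 or more (Camk2a), and p-values were adjusted by the Benjamini-Hochberg method over all rows tested, with a threshold of 0.05. "Rose" and "fell" stand for an adjusted p under that threshold. A log2 change is a difference on this scale, and the added 1 makes it smaller than the ratio of FPKM for weakly expressed genes.

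The libraries showed the following. Genes at FPKM 1 or more numbered 12450 to 12475 in Nex_cKO and 12157 to 12196 in Nex_Ctrl libraries, and 12756 to 12929 in Camk2a_cKO and 12545 to 12648 in Camk2a_Ctrl libraries. Read depth is unknown for the Nex libraries. For the Camk2a libraries, whole reads per gene could be recovered from FPKM and gene length, and summed to 16901717 and 16943855 in Camk2a_cKO and 17521841 and 20074933 in Camk2a_Ctrl libraries. Neurod6, a marker of cortical excitatory neurons, was at 14.6 to 22.2 FPKM in Nex_cKO and 29.4 to 34.0 FPKM in Nex_Ctrl libraries, and at 13.9 and 24.3 FPKM in Camk2a_cKO against 24.0 and 24.4 FPKM in Camk2a_Ctrl libraries. Since Cre of the Nex model is driven from this gene, its level in Nex_cKO libraries is not read as a measure of neuron number. Nsd1 stood in the 2.5-month table only in a row joined with Prelid1, at 91.0, 118.1 and 105.6 FPKM in Nex_cKO and 129.9, 125.1 and 141.4 FPKM in Nex_Ctrl libraries. In the 3-month table Nsd1 was at 4.31 and 4.99 FPKM in Camk2a_cKO and 5.61 and 8.87 FPKM in Camk2a_Ctrl libraries. Nex_cKO replicate 3 stood apart, with the Y-linked Ddx3y at 16.2 FPKM (listed at 0 in the other 5 Nex libraries) and with 41.55% of its summed FPKM in rows without a gene name (2.33% to 19.4% in the others).

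The promoters of 4 genes on which the results turn are shown first. They are those of the essential light chain Myl4, the kinase Mylk and the heavy chain Myh2, which rose in Nex_cKO cortex, and of the troponin Tnnc1, which fell. Each runs 5′ to 3′ from 250 bases before to 50 bases after the RefSeq start (GRCm38.p6), and capitals mark CG dinucleotides, where DNA methylation is placed in most mammalian cells. The windows are chr11:104550413-104550712 on the plus strand for Myl4, chr16:34784700-34784999 on the plus strand for Mylk, chr11:67170777-67171076 on the plus strand for Myh2 and chr14:31208062-31208361 on the plus strand for Tnnc1.
Myl4: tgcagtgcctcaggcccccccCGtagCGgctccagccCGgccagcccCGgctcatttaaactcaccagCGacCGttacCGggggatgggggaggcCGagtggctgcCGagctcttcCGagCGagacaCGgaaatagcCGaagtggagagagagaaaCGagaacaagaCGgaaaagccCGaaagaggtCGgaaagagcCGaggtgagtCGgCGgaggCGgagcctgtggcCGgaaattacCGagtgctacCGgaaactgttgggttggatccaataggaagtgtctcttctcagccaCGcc
Mylk: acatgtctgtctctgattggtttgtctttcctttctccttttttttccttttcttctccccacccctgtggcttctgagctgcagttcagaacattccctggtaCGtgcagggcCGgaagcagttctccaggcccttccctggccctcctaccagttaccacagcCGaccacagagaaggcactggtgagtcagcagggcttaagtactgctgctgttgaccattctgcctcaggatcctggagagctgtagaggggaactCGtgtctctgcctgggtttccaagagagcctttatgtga
Myh2: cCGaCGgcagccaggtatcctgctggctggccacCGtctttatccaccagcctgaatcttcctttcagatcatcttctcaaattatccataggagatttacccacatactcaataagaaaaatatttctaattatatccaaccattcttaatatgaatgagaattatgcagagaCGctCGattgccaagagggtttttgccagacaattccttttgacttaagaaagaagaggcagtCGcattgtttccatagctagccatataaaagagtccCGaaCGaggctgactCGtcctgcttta
Tnnc1: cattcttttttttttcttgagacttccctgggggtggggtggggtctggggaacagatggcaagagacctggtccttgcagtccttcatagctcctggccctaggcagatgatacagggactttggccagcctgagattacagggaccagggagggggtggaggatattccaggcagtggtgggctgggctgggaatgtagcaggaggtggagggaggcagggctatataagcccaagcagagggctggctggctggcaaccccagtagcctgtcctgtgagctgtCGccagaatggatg
The Myl4 window held 25 CG dinucleotides, and 83.1% of the 32851 promoters in the table held as many or fewer. The other windows held 9 (Myh2), 4 (Mylk) and 1 (Tnnc1), against a median of 7 over all promoters. Both strands were searched for muscle and general promoter motifs. The CArG box of serum response factor was held by 1.63% of all promoters and the MEF2 site by 3.19%. The letters CAGCTG, an E-box, were held by 16.3%, those of the TATA box, TATAAA, by 13.6%, and the letters GGGCGG by 35.7%. The only match among these 4 windows was a TATAAA in that of Myh2. The RefSeq start of Mylk lies inside the span of the gene in the 3-month table, which begins upstream of it. Promoters were found for 35 of the 39 genes.

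In Nex_cKO cortex a small set of muscle myosin and light chain kinase genes rose. The atrial and embryonic essential light chain Myl4, the smooth muscle and cardiac light chain kinases Mylk and Mylk3 and the fast and embryonic skeletal heavy chains Myh2 and Myh3 rose, and the slow skeletal and cardiac troponin C, Tnnc1, fell. Of the 20 rows tested 5 rose, where 4.38% of all 12496 rows tested did, and 1 fell, where 4.07% did. The 5 were 4 of 12 sarcomeric rows and 1 of 2 smooth muscle rows, and the gene that fell was sarcomeric. Of the 6 nonmuscle rows none passed in limma, and 2 had an unadjusted p under 0.05, as 23.4% of all rows tested had. The median log2 change was 0.51 over the 12 sarcomeric rows and -0.18 over the 6 nonmuscle rows, against -0.04 over all rows tested. Myh2 and Myh3 were under FPKM 1 in every Nex_Ctrl library, so they entered the test only through their level in Nex_cKO. Myh15 reached FPKM 1 in only 1 Nex_Ctrl library and also passed the filter through Nex_cKO. Since these genes are among the rows counted, the number that rose and the sarcomeric median do not stand as support.

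**Figure D1:**
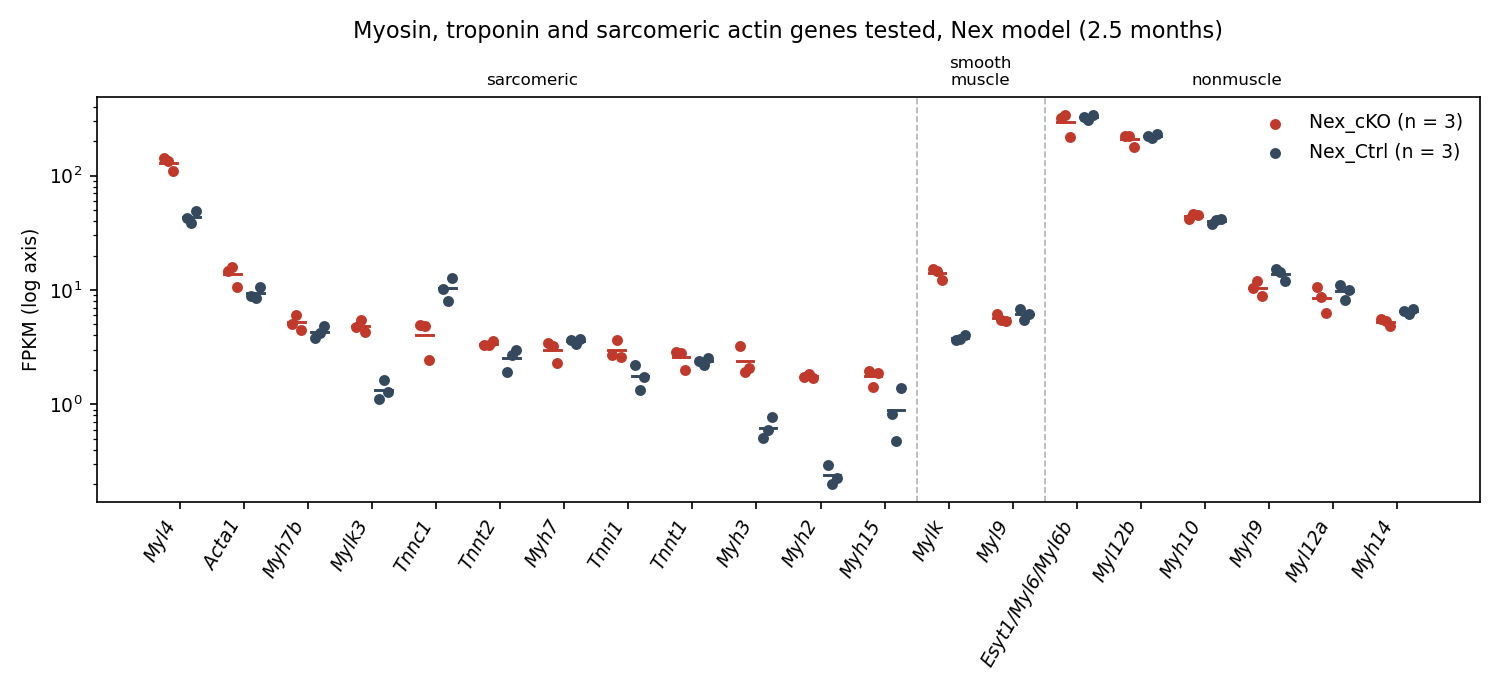
FPKM (log axis) of the 20 tested rows in each library of the Nex model, with points for libraries, bars for group means and dashed lines between sarcomeric, smooth muscle and nonmuscle genes. Myl4, Mylk3, Myh3, Myh2 and Mylk lie higher in all 3 Nex_cKO libraries than in any Nex_Ctrl library. So do Acta1, Tnnt2, Tnni1 and Myh15, which did not pass the threshold. Tnnc1 lies lower, as do the nonmuscle Myh9 and Myh14, which did not pass. The groups of the other nonmuscle rows overlap.

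Among the light chains, Myl4 (ENSMUSG00000061086, chromosome 11, 104550663 to 104595753 in GRCm38) was at 143.0, 133.8 and 108.6 FPKM in Nex_cKO libraries, against 42.4, 38.3 and 49.2 FPKM in Nex_Ctrl libraries. The groups were far apart, and the mean was 2.97 times as high in Nex_cKO (log2 change 1.55, SE 0.12, adjusted p = 0.0001012 in limma). It was the sarcomeric gene with the highest FPKM in both groups of this table. No stretch of 50 bases of its transcript occurred in a transcript of another gene. The other sarcomeric essential light chains, Myl1 of fast skeletal muscle and Myl3 of slow skeletal muscle and ventricle, and the sarcomeric regulatory light chains Myl2, Myl7 and Myl10 lay below the filter or were listed at 0. Of these only Myl2, the ventricular form, had a library above FPKM 0.5, at 0.596, 0 and 0 FPKM in Nex_cKO and 0.151, 0.142 and 0 FPKM in Nex_Ctrl libraries.

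Both light chain kinases above the filter rose. Mylk (ENSMUSG00000022836, chromosome 16, 34745210 to 35002420), the kinase of smooth muscle and nonmuscle cells, was at 15.2, 14.8 and 12.3 FPKM in Nex_cKO and 3.63, 3.69 and 4.07 FPKM in Nex_Ctrl libraries. Its groups were apart by more than the spread within either, with a mean 3.70 times as high in Nex_cKO (log2 change 1.65, SE 0.10, adjusted p = 2.808e-05 in limma). Mylk3 (ENSMUSG00000031698, chromosome 8, 85324303 to 85386345), the cardiac kinase, was at 4.74, 5.50 and 4.28 FPKM in Nex_cKO and 1.11, 1.63 and 1.27 FPKM in Nex_Ctrl libraries. It was 3.62 times as high in Nex_cKO, again without overlap (log2 change 1.32, SE 0.13, adjusted p = 0.0002837 in limma). Mylk2, the skeletal muscle kinase, and Mylk4 stayed under FPKM 0.1 in every Nex library.

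Neither the light chain that Mylk phosphorylates in smooth muscle nor its heavy chain partner was called. Myl9, the smooth muscle regulatory light chain, was at 6.21, 5.48 and 5.30 FPKM in Nex_cKO and 6.75, 5.47 and 6.22 FPKM in Nex_Ctrl libraries (log2 change -0.10, adjusted p = 0.6117 in limma). Myh11, the smooth muscle heavy chain, lay below the filter, at 0.583, 0.734 and 0.579 FPKM in Nex_cKO and 0.482, 0.593 and 0.415 FPKM in Nex_Ctrl libraries. The groups of both genes overlapped. Markers of vascular smooth muscle and pericytes summed to 56.9 to 71.7 FPKM in Nex_cKO and 64.5 to 77.1 FPKM in Nex_Ctrl libraries. Of their 13 tested members 2 rose, Cspg4 and Des, where 4.38% of all rows did, and none fell in limma. Des was under FPKM 1 in every Nex_Ctrl library and entered the test only through its level in Nex_cKO. The log2 changes of 8 of the 13 were negative, and the median was -0.01. Of 17 genes that regulate myosin phosphorylation, such as myosin phosphatase subunits, 1 rose (4.38% of all rows did), the GTPase Rhoa, at 14.2, 17.4 and 22.7 FPKM in Nex_cKO and 12.3, 10.9 and 9.43 FPKM in Nex_Ctrl libraries (adjusted p = 0.03485 in limma), and none fell in limma. In the same list 5 genes had an unadjusted p under 0.05, a share near the 23.4% of all rows.

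The skeletal heavy chains are encoded by a cluster of neighbouring genes on chromosome 11, in the order Myh3, Myh2, Myh1, Myh4, Myh8 and Myh13 along the plus strand, from 67078300 to 67371586. Myh3 (ENSMUSG00000020908), the embryonic form, was at 3.25, 1.91 and 2.06 FPKM in Nex_cKO and 0.510, 0.593 and 0.775 FPKM in Nex_Ctrl libraries, without overlap (3.84 times as high, log2 change 1.05, SE 0.16, adjusted p = 0.004653 in limma). Myh2 (ENSMUSG00000033196), the fast IIa form, was at 1.75, 1.85 and 1.70 FPKM in Nex_cKO and 0.293, 0.202 and 0.225 FPKM in Nex_Ctrl libraries. Its ratio of 7.35 was the largest of the 20 rows (log2 change 1.16, SE 0.11, adjusted p = 0.0003296 in limma).

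The other 4 genes of the cluster lay below the filter. Myh1, the fast IIx form, was at 0.887, 0.935 and 0.667 FPKM in Nex_cKO and 0.167, 0.231 and 0.278 FPKM in Nex_Ctrl libraries. Myh4, the fast IIb form, was at 0.370, 0.287 and 0.423 FPKM in Nex_cKO and 0.0599, 0.10 and 0.0771 FPKM in Nex_Ctrl libraries. Myh8, the perinatal form, was at 0.266, 0.153 and 0.246 FPKM in Nex_cKO and 0.0514, 0 and 0.0516 FPKM in Nex_Ctrl libraries. In these 3 genes every Nex_cKO library lay above every Nex_Ctrl library, whereas the groups of Myh13, the extraocular form, overlapped. They were the only 3 of the 15 rows below the filter and above 0 with Nex_cKO wholly higher, which held for 13.7% of all such rows, and none was wholly lower, where 5.66% were. With no filter on low values, limma called 8 of 35 rows higher (4.14% of all rows) and 1 lower (2.42%). The 8 included all 3, with adjusted p of 0.005941 for Myh1, 0.01118 for Myh4 and 0.03758 for Myh8.

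**Figure D2:**
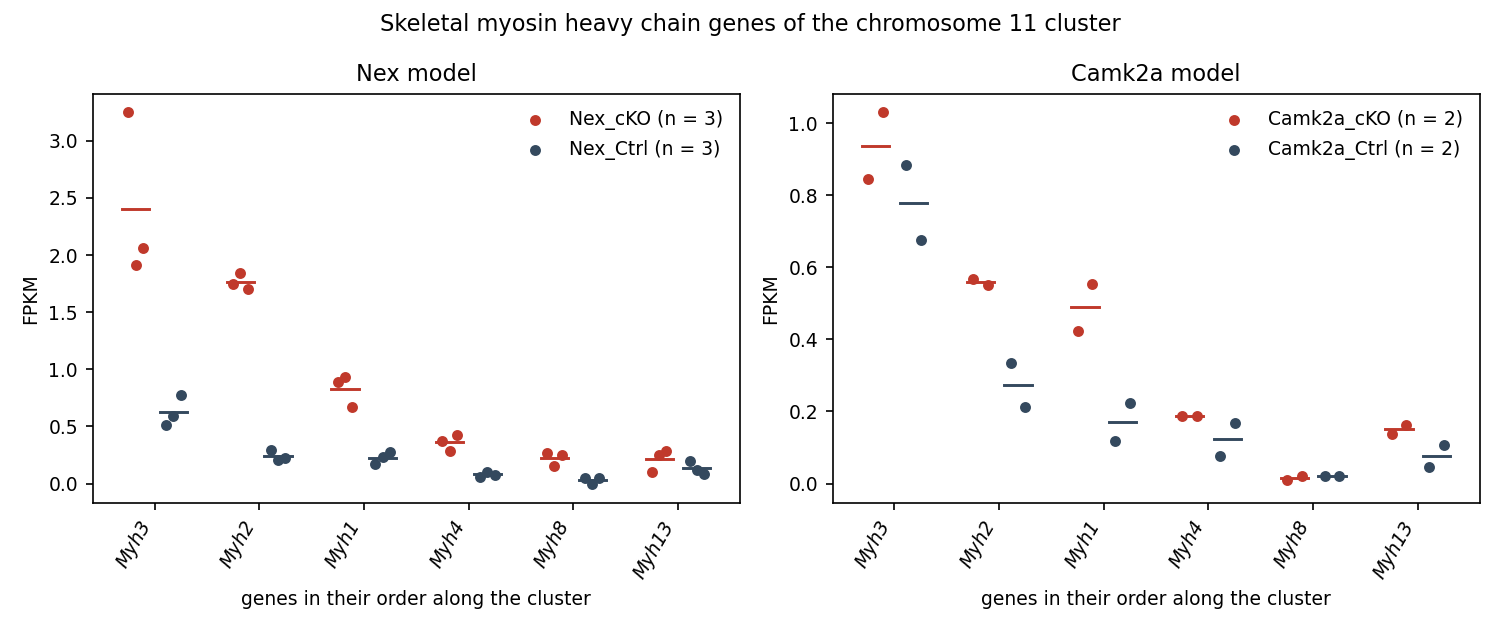
FPKM of the 6 skeletal heavy chain genes of the chromosome 11 cluster, in gene order, with the Nex libraries at the left and the Camk2a libraries at the right (points for libraries, bars for group means). The 2 axes differ. The Nex_cKO means decrease in gene order from Myh3 to Myh13, and the Nex_Ctrl means also decrease from Myh3 to Myh8. In 5 of the 6 genes Nex_cKO lies wholly above Nex_Ctrl.

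These genes share long stretches of sequence, so their separate levels are uncertain. Of all stretches of 50 bases in each transcript (GENCODE M21), 32.1% of Myh1, 28.9% of Myh2, 21.4% of Myh8, 18.9% of Myh4, 8.45% of Myh13 and 4.81% of Myh3 occurred in another gene. The run of 140 coding bases below is identical in Myh1, Myh2 and Myh4 and is shown because a read wholly inside it cannot be placed in any of them alone. In Myh1 it spans exons 15 and 16 of 40, at chr11:67207552-67208953 (GRCm38, plus strand).
Shared run: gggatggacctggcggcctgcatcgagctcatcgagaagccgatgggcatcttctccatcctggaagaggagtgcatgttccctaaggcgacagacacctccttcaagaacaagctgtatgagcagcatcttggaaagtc
Myh3 shared least and Myh2 shared most often with Myh1, in 19.7% of its stretches.

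The 2.5-month table listed Myh1 a second time, in a run of rows from the minus strand, opposite to the gene. That row was at 1.36, 1.71 and 0.954 FPKM in Nex_cKO and 1.13, 1.16 and 0.663 FPKM in Nex_Ctrl libraries, and its groups overlapped. It was kept apart from the Myh1 row on the strand of the gene, whose groups did not overlap. Second rows of this kind also stood for Myh6, at 0.467, 0.402 and 0.385 FPKM in Nex_cKO and 0.649, 0.565 and 0.546 FPKM in Nex_Ctrl libraries, and for Myh7b, whose groups overlapped. Whether the counting used strand is not given in the sources used here.

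The heavy chains outside the cluster did not pass the test. Myh7, the slow skeletal and beta-cardiac form, was at 3.41, 3.24 and 2.30 FPKM in Nex_cKO and 3.68, 3.39 and 3.71 FPKM in Nex_Ctrl libraries (log2 change -0.22, adjusted p = 0.3493 in limma), and it shared 28.2% of its stretches, most of them with Myh6. Myh7b, a slow form also known from rat hippocampal neurons, was at 5.08, 6.09 and 4.44 FPKM in Nex_cKO and 3.82, 4.21 and 4.84 FPKM in Nex_Ctrl libraries (log2 change 0.23, adjusted p = 0.3156 in limma). Myh15 was at 1.97, 1.42 and 1.87 FPKM in Nex_cKO and 0.826, 0.482 and 1.38 FPKM in Nex_Ctrl libraries, without overlap but short of the threshold (log2 change 0.56, adjusted p = 0.1009 in limma). Myh6, the alpha-cardiac form, stayed under FPKM 0.5 in every library on its own strand.

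Of the troponins, the only one that passed moved downward. Tnnc1 (ENSMUSG00000091898, chromosome 14, 31208312 to 31211729), the calcium-binding subunit of slow skeletal and cardiac muscle, was at 4.93, 4.83 and 2.42 FPKM in Nex_cKO and 10.2, 7.99 and 12.7 FPKM in Nex_Ctrl libraries. The highest Nex_cKO library was below the lowest Nex_Ctrl library, and the ratio of means was 0.394 (log2 change -1.18, SE 0.23, adjusted p = 0.01382 in limma). Nex_cKO replicate 3, which stood apart, was the lowest, and without it the log2 change was -0.92 (adjusted p = 0.009638 in limma). The call was lost without Nex_Ctrl replicate 1 (log2 change -1.18, adjusted p = 0.05902) and without Nex_Ctrl replicate 3 (log2 change -1.03, adjusted p = 0.05664 in limma).

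The inhibitory and tropomyosin-binding subunits did not pass the test. Tnni1, the slow skeletal troponin I, was at 2.69, 3.63 and 2.58 FPKM in Nex_cKO and 2.19, 1.35 and 1.75 FPKM in Nex_Ctrl libraries (log2 change 0.52, adjusted p = 0.07112 in limma). Tnnt2, the cardiac troponin T, was at 3.31, 3.27 and 3.56 FPKM in Nex_cKO and 1.91, 2.72 and 2.97 FPKM in Nex_Ctrl libraries (log2 change 0.32, adjusted p = 0.1807 in limma). Both lay wholly higher in Nex_cKO but missed the threshold. Tnnt1, the slow skeletal troponin T, was at 2.89, 2.82 and 2.01 FPKM in Nex_cKO and 2.42, 2.21 and 2.56 FPKM in Nex_Ctrl libraries, with overlap (log2 change 0.06, adjusted p = 0.8041 in limma; its sign turned under quantile normalization). Below the filter, Tnni3, the cardiac troponin I, was at 0.228, 0.788 and 0.267 FPKM in Nex_cKO and 0.185, 0.261 and 0 FPKM in Nex_Ctrl libraries. Tnni2, the fast skeletal troponin I, was at 0, 0.250 and 0 FPKM in Nex_cKO and 0.265, 0.504 and 0.137 FPKM in Nex_Ctrl libraries. The groups of both overlapped, Tnnc2, the fast skeletal troponin C, was under FPKM 0.5 throughout, and Tnnt3, the fast skeletal troponin T, was listed at 0 in all 6 libraries.

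Acta1, the skeletal alpha-actin, was at 14.5, 15.8 and 10.6 FPKM in Nex_cKO and 8.90, 8.56 and 10.5 FPKM in Nex_Ctrl libraries. The groups did not overlap, but Nex_cKO replicate 3 lay close to the highest Nex_Ctrl library, and the gene missed the threshold (log2 change 0.49, SE 0.14, adjusted p = 0.06879 in limma). Without Nex_cKO replicate 3 it passed (log2 change 0.65, adjusted p = 0.00568), and it also passed after rescaling by the median ratio (log2 change 0.53, adjusted p = 0.04928 in limma). Actc1, the cardiac alpha-actin, was listed at 0 in all 6 libraries. Over all rows tested, 9 of the 20 lay wholly higher in Nex_cKO, where 11.4% of all tested rows did, and 3 lay wholly lower, where 18.9% did. The 9 included Myh2, Myh3 and Myh15, which passed the filter only through their level in Nex_cKO. Without Nex_cKO replicate 3, 6 of the 20 rose (4.94% of all rows in that fit) and 1 fell (4.44%), and the log2 changes were 1.74 for Mylk, 1.66 for Myl4, 1.39 for Mylk3, 1.17 for Myh2 and 1.12 for Myh3.

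None of the nonmuscle genes was called, and the highest FPKM of all 20 rows stood in 2 of theirs, the joined Myl6 row and Myl12b. The joined row of Esyt1, Myl6 and Myl6b was at 320.7, 338.2 and 219.0 FPKM in Nex_cKO and 326.1, 306.7 and 336.4 FPKM in Nex_Ctrl libraries, so the essential light chains Myl6 and Myl6b could not be read alone. Myl12b, a regulatory light chain, was at 222.9, 223.6 and 176.1 FPKM in Nex_cKO and 223.4, 212.6 and 229.85 FPKM in Nex_Ctrl libraries. In both rows Nex_cKO replicate 3 was the lowest library, and the others overlapped. The log2 changes were -0.17 (adjusted p = 0.568) and -0.10 (adjusted p = 0.6062 in limma), and both turned to slightly positive under quantile normalization and without Nex_cKO replicate 3. The near-identical Myl12a, which shared 29.6% of its stretches, was at 10.6, 8.74 and 6.25 FPKM in Nex_cKO and 11.1, 8.22 and 10.02 FPKM in Nex_Ctrl libraries (log2 change -0.20, adjusted p = 0.5357 in limma). Without Nex_cKO replicate 3 its log2 change was -0.01.

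Of the nonmuscle heavy chains, Myh10 (IIB), the main form in brain, was at 41.7, 45.9 and 44.8 FPKM in Nex_cKO and 37.4, 41.3 and 41.9 FPKM in Nex_Ctrl libraries, a log2 change of 0.13 (adjusted p = 0.3244 in limma). Myh9 (IIA) was at 10.4, 12.0 and 8.83 FPKM in Nex_cKO and 15.2, 14.2 and 12.1 FPKM in Nex_Ctrl libraries, a log2 change of -0.38 (adjusted p = 0.09688 in limma). Myh14 (IIC) was at 5.56, 5.31 and 4.80 FPKM in Nex_cKO and 6.49, 6.21 and 6.76 FPKM in Nex_Ctrl libraries, a log2 change of -0.27 (adjusted p = 0.111 in limma). Myh9 and Myh14 lay wholly lower in Nex_cKO, Myh9 only by a small margin, and Myh9 passed the threshold without Nex_cKO replicate 2 (log2 change -0.48, adjusted p = 0.04047 in limma). Endothelial markers, where Myh9 is also expressed, summed to 115.2 to 128.5 FPKM in Nex_cKO and 130.2 to 157.6 FPKM in Nex_Ctrl libraries. The 9 rows with a single name summed to 86.0 to 98.2 FPKM in Nex_cKO and 110.0 to 136.6 FPKM in Nex_Ctrl libraries. Of the 10 rows tested 2 fell, where 4.07% of all rows did, and 1 rose, where 4.38% did. The row that rose joined Esam with Msantd2 and Vsig2. The log2 changes of the other 9 were negative, and the median over the list was -0.22. The part of endothelial cells in the Myh9 values was not tested.

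Other genes of the contractile apparatus were read from lists chosen beside these families, with earlier results of these data known. Of 21 tested genes of sarcomere structure and muscle calcium handling, 9 rose, where 4.38% of all rows did, and 1 fell, where 4.07% did. The median log2 change was 0.27, with 16 positive and 5 negative. Of the 9, 7 were under FPKM 1 in every Nex_Ctrl library and entered the test only through their level in Nex_cKO, so the count does not stand as support. Sln, sarcolipin, which regulates the calcium pump of the sarcoplasmic reticulum, was at 9.40, 10.2 and 7.78 FPKM in Nex_cKO and 0.253, 0 and 0.521 FPKM in Nex_Ctrl libraries (log2 change 3.02, SE 0.17, adjusted p = 1.618e-05 in limma). Myoz1, a Z-disc protein, was at 2.19, 2.32 and 2.19 FPKM in Nex_cKO and was listed at 0 in the 3 Nex_Ctrl libraries (adjusted p = 4.181e-05 in limma). Ryr1, the calcium release channel of skeletal muscle, was at 8.48, 8.86 and 8.42 FPKM in Nex_cKO and 2.52, 2.64 and 3.14 FPKM in Nex_Ctrl libraries (log2 change 1.35, SE 0.10, adjusted p = 6.422e-05 in limma). All 3 were wholly higher in Nex_cKO. The gene that fell, named after its values were seen, was Actn2, an alpha-actinin of Z discs and of dendritic spines, at 0.565, 0.551 and 0.189 FPKM in Nex_cKO and 2.09, 2.50 and 2.43 FPKM in Nex_Ctrl libraries (log2 change -1.23, SE 0.14, adjusted p = 0.0008744 in limma).

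Markers of skeletal and heart muscle, 16 of which are also in the list of sarcomere genes, were measured for the same reason. Of the 19 listed, 7 were tested and 5 rose, where 4.38% of all rows did, and none fell in limma, where 4.07% did. An unadjusted p under 0.05 was reached by 6, where 23.4% of all rows reached it. Of the 5, 3 were under FPKM 1 in every Nex_Ctrl library and entered the test only through their level in Nex_cKO, so the count does not stand as support. Among the 5 was Tcap, a titin-binding Z-disc protein, in a row joined with Pnmt, at 24.7, 26.4 and 26.8 FPKM in Nex_cKO and 7.83, 5.29 and 7.63 FPKM in Nex_Ctrl libraries (log2 change 1.78, adjusted p = 6.685e-05 in limma). The 17 rows of the list with a single name summed to 18.9 to 20.3 FPKM in Nex_cKO and 5.68 to 6.66 FPKM in Nex_Ctrl libraries, without overlap. Of the 19 listed, 5 rose, as given above, and 3 were under FPKM 0.1 in every Nex library. These 3 were the giant sarcomere protein Ttn, the myogenic factor Myog and the M-band protein Myom2. Actc1 and Tnnt3, described above and not in this list, were listed at 0. Of 10 tested muscle transcription factors none passed in limma, and none had an unadjusted p under 0.05. With no filter on low values limma called 2 more factors of that list, the cardiac factors Nkx2-5 and Tbx5, which were listed at 0 in the 3 Nex_Ctrl libraries. Nkx2-5 was at 1.13, 0.951 and 0.684 FPKM in Nex_cKO (adjusted p = 0.001254 in limma) and Tbx5 at 0.155, 0.232 and 0.322 FPKM in Nex_cKO libraries (adjusted p = 0.02045 in limma). The same fit called Neb, the thin filament protein nebulin, higher (log2 change 0.94, adjusted p = 0.004652 in limma). It called the listed gene Pln lower (log2 change -0.32, adjusted p = 0.03309 in limma). The part of muscle cells in these values was not tested beyond the levels given.

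Among 16 tested unconventional myosins, motors that form no filaments, 3 rose, where 4.38% of all rows did, and 1 fell, where 4.07% did. Myo18b, known from striated muscle, was at 2.13, 2.45 and 3.09 FPKM in Nex_cKO and 0.426, 0.558 and 0.412 FPKM in Nex_Ctrl libraries (log2 change 1.27, adjusted p = 0.0004973 in limma). Myo7a, a motor of sensory hair cells, was at 6.77, 6.86 and 8.23 FPKM in Nex_cKO and 2.92, 3.49 and 3.51 FPKM in Nex_Ctrl libraries (log2 change 0.94, adjusted p = 0.0008336 in limma). Both were wholly higher in Nex_cKO. Myo18b was under FPKM 1 in every Nex_Ctrl library and entered the test only through its level in Nex_cKO. The row that fell joined Myo5c with Gnb5. Red blood cell markers summed to 50.7 to 95.1 FPKM in Nex_cKO and 124.5 to 272.4 FPKM in Nex_Ctrl libraries. Both tested rows fell, where 4.07% of all rows did. None of 8 fibroblast, 6 thalamus or 1 choroid plexus markers tested passed in limma. An unadjusted p under 0.05 was reached by 2, 3 and 1 of them, where 23.4% of all rows reached it. With no filter on low values the choroid plexus marker Kl was called higher (log2 change 0.61, adjusted p = 0.00954 in limma). The log2 changes of all 8 fibroblast rows were negative, with a median of -0.30. Thalamus markers summed to 30.6 to 32.2 FPKM in Nex_cKO and 26.0 to 28.1 FPKM in Nex_Ctrl libraries, and choroid plexus markers to 2.60 to 4.89 FPKM in Nex_cKO and 1.36 to 1.59 FPKM in Nex_Ctrl libraries, both without overlap. The part of these cells and regions in the values of the contractile genes was not tested.

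In the Camk2a model no gene of the families passed. Of the 16 tested, 5 had an unadjusted p under 0.05 in limma, and of all 12919 rows tested 899 (6.96%) did and 0 (0%) were called. Without an intensity trend limma called 5 of all rows, none of them a myosin, troponin or actin gene. The 5 with the smallest p, Myh7b, Mylk3, Myl4, Mylk and Acta1, were all higher in Camk2a_cKO. Wholly higher in Camk2a_cKO were 6 of the 16 tested, these 5 and Myl9, where 16.2% of all tested rows were, and none was wholly lower, where 21.1% were. The sarcomeric median log2 change was 0.54 over 6 genes and the nonmuscle median was -0.0039 over 7, against -0.009 over all rows tested. Mylk3, which these counts and the sarcomeric median include, reached FPKM 1 in only 1 Camk2a_Ctrl library and passed the filter through Camk2a_cKO.

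**Figure D3:**
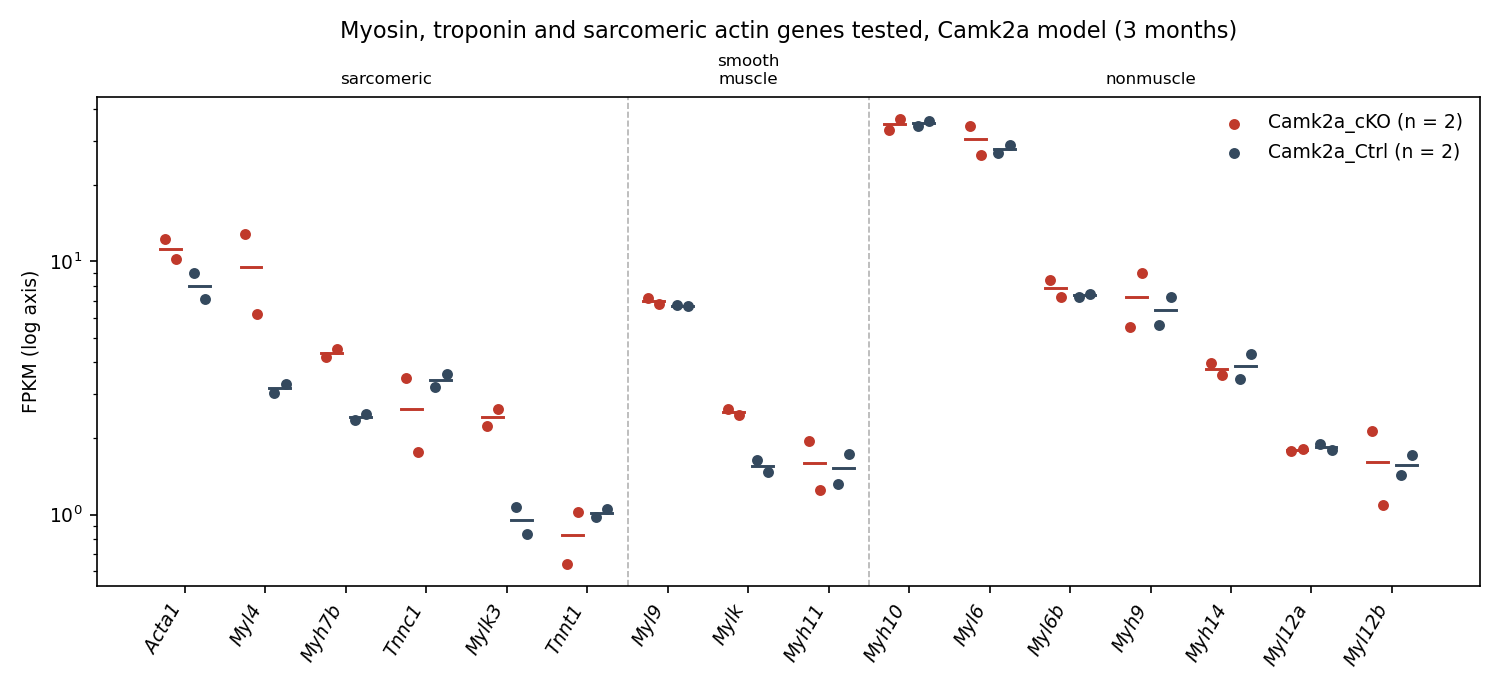
FPKM (log axis) of the 16 tested genes in each library of the Camk2a model, with points for libraries, bars for group means and dashed lines between sarcomeric, smooth muscle and nonmuscle genes. Acta1, Myl4, Myh7b, Mylk3, Mylk and, by a small margin, Myl9 lie higher in both Camk2a_cKO libraries than in either Camk2a_Ctrl library.

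Myl4 was at 12.8 and 6.22 FPKM in Camk2a_cKO and 3.03 and 3.27 FPKM in Camk2a_Ctrl libraries, from 1059 and 485 reads against 242 and 300 reads. Both Camk2a_cKO libraries were above the controls, but they differed from each other by more than the controls' level (log2 change 1.27, SE 0.29, adjusted p = 0.4739 in limma). Mylk3 was at 2.24 and 2.61 FPKM in Camk2a_cKO and 1.07 and 0.838 FPKM in Camk2a_Ctrl libraries (log2 change 0.81, SE 0.15, adjusted p = 0.3898 in limma). Mylk was at 2.62 and 2.48 FPKM in Camk2a_cKO and 1.64 and 1.47 FPKM in Camk2a_Ctrl libraries (log2 change 0.48, SE 0.13, adjusted p = 0.5166 in limma). For both kinases the 2 libraries of a group lay close together and the groups apart.

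Myh7b was at 4.18 and 4.52 FPKM in Camk2a_cKO and 2.37 and 2.49 FPKM in Camk2a_Ctrl libraries, from 494 and 504 reads against 270 and 326 reads (log2 change 0.64, SE 0.11, adjusted p = 0.3695 in limma). Acta1 was at 12.2 and 10.3 FPKM in Camk2a_cKO and 8.97 and 7.08 FPKM in Camk2a_Ctrl libraries (log2 change 0.44, SE 0.14, adjusted p = 0.5995 in limma). Neither overlapped, whereas Tnnc1 did, at 3.45 and 1.77 FPKM in Camk2a_cKO and 3.18 and 3.60 FPKM in Camk2a_Ctrl libraries (log2 change -0.32, adjusted p = 0.8575 in limma). Tnnc1 rested on 64 and 31 reads against 57 and 74 reads. Tnnt1 also overlapped, at 0.637 and 1.03 FPKM in Camk2a_cKO and 0.976 and 1.06 FPKM in Camk2a_Ctrl libraries.

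Apart from Mylk, the smooth muscle and nonmuscle genes had adjusted p above 0.9 in limma. Myl9 was at 7.20 and 6.81 FPKM in Camk2a_cKO and 6.70 and 6.66 FPKM in Camk2a_Ctrl libraries, and Myh11 was at 1.95 and 1.24 FPKM in Camk2a_cKO and 1.32 and 1.74 FPKM in Camk2a_Ctrl libraries. Smooth muscle and pericyte markers summed to 63.4 and 72.4 FPKM in Camk2a_cKO and 71.1 and 73.5 FPKM in Camk2a_Ctrl libraries. The 7 nonmuscle genes had log2 changes between -0.03 (Myh14) and 0.13 (Myh9), with overlapping groups in every case. As listed, Myh10 had the highest group means of the 7. It was at 32.9 and 36.6 FPKM in Camk2a_cKO and 34.3 and 36.1 FPKM in Camk2a_Ctrl libraries. Myl6 was at 34.4 and 26.4 FPKM in Camk2a_cKO and 26.8 and 28.9 FPKM in Camk2a_Ctrl libraries. It shared 46.5% of its stretches with other genes, so its separate level is uncertain. Myl6b was at 8.43 and 7.25 FPKM in Camk2a_cKO and 7.27 and 7.45 FPKM in Camk2a_Ctrl libraries.

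The 4 others had lower group means as listed. Myh9 was at 5.52 and 9.003 FPKM in Camk2a_cKO and 5.62 and 7.24 FPKM in Camk2a_Ctrl libraries, and Myh14 was at 3.96 and 3.57 FPKM in Camk2a_cKO and 3.44 and 4.30 FPKM in Camk2a_Ctrl libraries. Myl12a was at 1.79 and 1.82 FPKM in Camk2a_cKO and 1.90 and 1.79 FPKM in Camk2a_Ctrl libraries, and Myl12b was at 2.13 and 1.10 FPKM in Camk2a_cKO and 1.43 and 1.72 FPKM in Camk2a_Ctrl libraries. Myl12a shared 29.6% and Myl12b 11.4% of their stretches, mostly with each other, so their separate levels are uncertain. In the Nex libraries Myl12b was at 176.1 to 229.85 FPKM, and the cause of this gap was not tested. No test was made of levels between the 2 tables, which were made apart.

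The heavy chain cluster was weak in the Camk2a model and lay below the filter. Myh2 was at 0.567 and 0.550 FPKM in Camk2a_cKO and 0.334 and 0.213 FPKM in Camk2a_Ctrl libraries, from 72 and 66 reads against 41 and 30 reads. Myh1 was at 0.424 and 0.552 FPKM in Camk2a_cKO and 0.119 and 0.223 FPKM in Camk2a_Ctrl libraries, from 48 and 59 reads against 13 and 28 reads. Both were wholly higher in Camk2a_cKO, as were Myh4 and Myh13, and Myh3 overlapped at 0.844 and 1.03 FPKM in Camk2a_cKO and 0.883 and 0.676 FPKM in Camk2a_Ctrl libraries. Of the 19 genes below the filter and above 0, 6 were wholly higher in Camk2a_cKO, where 16.2% of all such rows were, and 1, Tnnt2, was wholly lower, where 9.35% were. The other 2 of the 6 were Myh6 and Myh7. Myh7 was at 1.07 and 0.863 FPKM in Camk2a_cKO and 0.843 and 0.851 FPKM in Camk2a_Ctrl libraries. Tnni1 overlapped, at 0.671 and 0.512 FPKM in Camk2a_cKO and 0.614 and 0.688 FPKM in Camk2a_Ctrl libraries. Mylk2, Tnnc2, Myl7 and Myl10 had 0 reads in all 4 libraries, where a count of 0 allows up to 3 reads per library by counting error alone.

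The lists around these families held no call in the Camk2a model in limma. Of 12 tested sarcomere and calcium genes 1 had an unadjusted p under 0.05, where 6.96% of all rows did. It was Tcap, at 11.5 and 10.3 FPKM in Camk2a_cKO and 8.95 and 5.87 FPKM in Camk2a_Ctrl libraries (adjusted p = 0.6499 in limma). Striated muscle markers summed to 15.8 and 17.1 FPKM in Camk2a_cKO and 9.26 and 13.1 FPKM in Camk2a_Ctrl libraries, without overlap. Endothelial markers summed to 76.7 and 88.8 FPKM in Camk2a_cKO and 65.4 and 69.6 FPKM in Camk2a_Ctrl libraries, and red blood cell markers to 124.4 and 159.3 FPKM in Camk2a_cKO and 80.4 and 100.9 FPKM in Camk2a_Ctrl libraries, both without overlap. Of the 10 endothelial markers tested 2 had an unadjusted p under 0.05, and of the 5 red blood cell markers 3 did. The part of these cells in the values of the contractile genes was not tested.

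Whether a change differed between the models was tested on the 13 genes measured above the filter in both tables. Mylk was the one gene that differed, with a log2 change larger by 1.17 in the Nex than in the Camk2a model (SE 0.15, adjusted p = 0.006571 in limma), where 0.519% of all 10401 rows did. The difference was 0.51 for Mylk3 (adjusted p = 0.2944), 0.28 for Myl4 (adjusted p = 0.7265), -0.42 for Myh7b (adjusted p = 0.3535) and -0.86 for Tnnc1 (adjusted p = 0.3535 in limma). For these 4 genes the larger or smaller change in one model is thus not shown to differ from the other. Driver, age and table differ together between the models and cannot be told apart. Sex markers differed too, since Ddx3y was at 10.98 to 12.35 FPKM in the 4 Camk2a libraries and listed at 0 in 5 of the 6 Nex libraries. Without Camk2a_Ctrl replicate 1 the Mylk difference was 1.12 and missed the threshold (adjusted p = 0.0611 in limma).

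**Figure D4:**
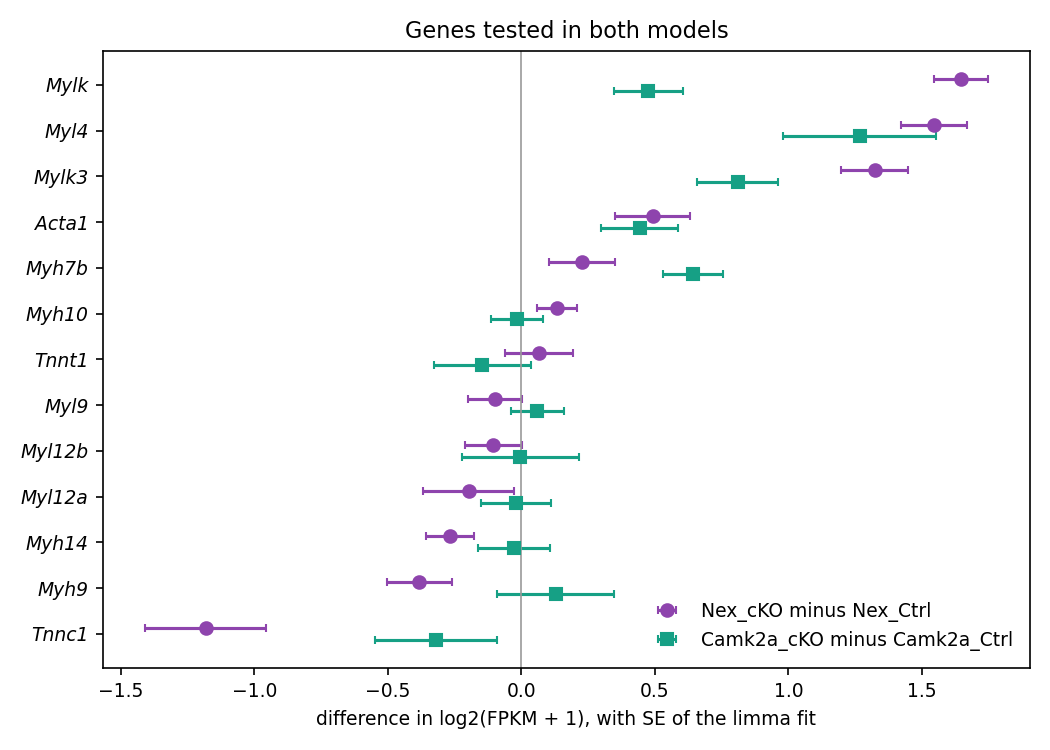
Difference in log2(FPKM + 1) with the SE of the limma fit for the 13 genes tested in both models, Nex_cKO minus Nex_Ctrl (circles) and Camk2a_cKO minus Camk2a_Ctrl (squares). Mylk lies at 1.65 for Nex_cKO and 0.48 for Camk2a_cKO, Myl4 at 1.55 and 1.27, and Tnnc1 at -1.18 and -0.32.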

How the data were processed

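RNA-seq of mouse somatosensory cortex was read from 2 tables of FPKM that the authors deposited, one per model. Per the labels' protocols, libraries were prepared from total RNA with the NEBNext Ultra II kit. Tools listed in the submitters' processing notes, with no role, are Cufflinks 2.2.1, STAR, cutadapt and DESeq2, and the builds are mm10 and GRCm38. Read length and strand use are not given in the sources used here.

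Genes and lists were chosen with earlier results of these data known. Members with FPKM of at least 1 in enough libraries, or called in any test, are given with the value of every library, as are weaker ones with a library at FPKM 0.5 or more. Of each list at most 3 called genes are named, by smallest p.

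Where a name had several rows in the 2.5-month table (1864 rows left out), the row of highest mean among those lying in a run of genes of its own strand was kept, judged from up to 10 rows on each side. Likewise 105 rows of the 3-month data were left out. The 4463 rows without a name were not tested.

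Values were fitted with limma 3.58.1 in R 4.3.3 (lmFit, eBayes with intensity trend) on log2(FPKM + 1), each model apart. The difference between models was fitted over rows tested in both. The fit was tested on simulated data. Reads per gene of the 3-month table were recovered by dividing FPKM times length by what 1 read is worth in that library, and came out whole (tolerance 0.1) for 100% of values. No count model was run on them. Alternatives tried were no filter or one of FPKM 5, a pseudocount of 0.1, quantile normalization, median-ratio rescaling, a fit with no intensity trend, a block for replicate number, and each library left out in turn. Other choices of row were added after the data were seen.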

Additional observations from a re-analysis of the deposited data

Results flagged for a closer look

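The change of Mylk, the smooth muscle and nonmuscle light chain kinase, differed between the models in a test of the difference itself. Its log2 change was 1.65 in Nex_cKO against Nex_Ctrl and 0.48 in Camk2a_cKO against Camk2a_Ctrl, a difference of 1.171 (SE 0.15, adjusted p = 0.006571 in limma over 10401 rows). It was wholly higher in all 3 Nex_cKO and in both Camk2a_cKO libraries.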

How the results depend on the processing

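In the Nex model 6 genes were called. Over all 12496 rows tested 547 rose and 508 fell. With a filter of FPKM 5 these were 196 and 346 of 8922 rows, and with no filter 730 and 427 of 17651 rows. After rescaling by the median ratio 594 rose and 320 fell, and with a library left out 432 to 624 rose and 159 to 683 fell. The count of genes of these families was 3 of 11 tested with the filter of FPKM 5, 9 of 35 with no filter and 7 of 20 after rescaling. It was 5 to 7 when a library was left out. In the Camk2a model it was 0 under every alternative run. The number of genes that differed between the models was 1, with 2 without a filter (Mylk and Myh2), 0 with the filter of FPKM 5 and 0 to 1 when a library was left out (where a Camk2a group then holds 1 library, it is assumed to vary like the other groups), the call being lost without Camk2a_Ctrl replicate 1. Mylk was not among the 5 genes tested for a difference between the models with the filter of FPKM 5. Mylk, Myl4, Mylk3, Myh2 and Myh3 were called in the Nex model in every setting in which they were tested. No log2 change that turned sign was called. Under rescaling by the median ratio that of Myl12b in the Camk2a model was 0.0063. Under quantile normalization those of the Myl6 row, Myl12b and Tnnt1 in the Nex model were 0.0069, 0.00098 and -0.017, and those of Myh10 and Myh11 in the Camk2a model were 0.0019 and -0.016. With libraries left out, log2 changes ranged in the Nex model from -0.0015 to 0.18 for Tnnt1, -0.28 to 0.029 for the Myl6 row and -0.16 to 0.0092 for Myl12b. In the Camk2a model they ranged from -0.091 to 0.057 for Myh10, -0.074 to 0.30 for Myl6, -0.020 to 0.17 for Myl6b, -0.17 to 0.23 for Myh11, -0.30 to 0.0072 for Tnnt1, -0.18 to 0.44 for Myh9, -0.16 to 0.10 for Myh14, -0.66 to 0.023 for Tnnc1, -0.29 to 0.29 for Myl12b and -0.049 to 0.0076 for Myl12a. The difference of the Myl4 change between models ranged from -0.19 to 0.75. The cause of these changes was not tested.

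Libraries of the same number did not deviate together (correlations of 0.00040, -0.099 and -0.096 for Nex, 0.050 for Camk2a). With a replicate block the counts of genes called were 6, 0 and 1, as without it, and over all rows of the Nex model 485 rose and 271 fell, against 547 and 508 without the block. The depth of the Nex libraries is unknown, and with 2 libraries per group the Camk2a model resolves little.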
